A study of Mus musculus with 8 samples.

Results

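Collagen chain genes, which encode the subunits of the collagens, were followed in mouse lung after a toxin had been given to ablate lysozyme M expressing cells. The members were all array gene names made of Col, a type number, the letter a and a chain number. The array held 44 such names on 91 probes. A gene counted as measured when at least 1 group had a probe well above background in each of its mice, and its brightest such probe stood for it. This left 37 collagen genes among 25830 genes measured, of 37074 names on the array. The 7 that were left out are Col6a5, Col6a6, Col9a3, Col10a1, Col24a1, Col25a1 and Col28a1. No probe of these passed the requirement, so they have no value here and are not called absent.

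The lungs came from 8 male bone marrow chimeras aged 22 weeks, taken 72 hours after diphtheria toxin (DT), with 2 mice in each of 4 groups. Groups carry the donor's letter and then the recipient's. In LL both donor and recipient were LysM-DTR. In WL the recipient was LysM-DTR and the donor wild type, in LW the donor was LysM-DTR and the recipient wild type, and in WW neither carried the transgene. LysM-DTR mice carry the diphtheria toxin receptor under the lysozyme M promoter, which is active in myeloid cells and in the alveolar type 2 cells of the lung. All groups, WW included, had DT, and no lung without toxin was analysed here. How much of each lung's blood lineage was of donor origin is not given in the sources used here.

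Collagens are triple helices in which every residue at a fixed step is glycine, and the chains differ in where the helix is interrupted and what flanks it. Fibrillar chains (types I, II, III, V, XI and XXVII) build the load-bearing fibrils of the interstitium. Type IV chains build the sheet of the basement membrane, and the alveolar wall holds a Col4a1 and Col4a2 network together with a Col4a3, Col4a4 and Col4a5 network. Fibroblasts are the main source of the fibrillar chains in lung. Other classes decorate fibrils, form beaded filaments, anchor epithelium or cross the plasma membrane.

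The glycine repeat is visible in the array's own probes. A run of at least 5 GGN codons spaced every 9 bases, read on the probe's strand only, was found in 6 of the 91 collagen probes and in 16 of all 56605 probes (0.0283%). The probes below are shown because the results on Col22a1, Col6a3 and Col15a1 turn in part on them. Capitals mark the glycine codons of the run, and positions are on mm9, as the array's annotation gives them.
Col22a1, chr15:71767749-71768433, minus strand, dimmer probe: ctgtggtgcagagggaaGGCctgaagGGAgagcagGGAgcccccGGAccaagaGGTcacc
Col6a3, chr1:92689602-92690594, minus strand, dimmer probe: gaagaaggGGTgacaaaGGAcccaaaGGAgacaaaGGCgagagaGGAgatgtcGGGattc
Col15a1, chr4:47283786-47283845, plus strand, brightest probe: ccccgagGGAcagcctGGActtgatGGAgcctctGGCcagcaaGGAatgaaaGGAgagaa
The Col22a1 and Col6a3 probes cover more of the genome than their 60 bases, so each crosses a splice junction. The annotation does not say whether a position is coding or untranslated, so no such class is given for the probes without the repeat.

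Levels are log2 of the processed Cy3 intensity minus the array's 75th percentile, so 0 is the brightness of the 75th percentile probe of that array. A level belongs to its probe and is not compared between genes. In whole lung, fewer cells of a type and less RNA per cell cannot be told apart. Between 66.3% and 72.3% of the spots were well above background on each array, and no spot was saturated. All arrays shared 1 slide and 1 scan, and the LysM-DTR recipients filled one slide column, the wild-type recipients the other. Recipient genotype and slide column therefore cannot be told apart. WL mouse 2 stood apart from WL mouse 1: over the collagen genes the WL mice differed by a median of 0.71 on the log2 scale, against 0.27 in LL, 0.12 in LW and 0.25 in WW. Over all genes these medians were 0.44, 0.17, 0.12 and 0.14. WW mouse 2 had the lowest level of all arrays in 15 of the 37 collagen genes, or 40.5%, against 11.2% of all genes, so results against WW rest in part on that mouse.

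The comparison of LL with WW asks what the collagen genes did in lungs in which both marrow-derived and recipient cells could bind the toxin. Both LL mice stood above both WW mice in 15 of the 37 collagen genes (40.5%), against 37.0% of all genes, and below both in 9 (24.3%), against 32.4% of all genes. The share of collagen genes that separated was thus near the share of all genes. The higher genes were led by Col22a1, the type IV pair Col4a1 and Col4a2, the type II chain Col2a1 and the fibrillar chains Col1a1 and Col3a1, with differences of 1.26 to 3.54. The lower genes were led by Col8a2 at -1.04.

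No collagen gene passed an adjusted p under 0.05 in limma's moderated test with Benjamini-Hochberg adjustment over all genes, in which 3.13% of all genes were called. The smallest adjusted p was 0.068, for Col1a2. At an unadjusted p under 0.05, 13 of the 37 collagen genes (35.1%) and 24.8% of all genes were reached. Their median difference was 0.11, against 0.03 for all genes. The fit takes its spread from all 8 arrays. Without the WL mice the SE of LL against WW was smaller in 33 of the 37 collagen genes, with a median of 0.18 against 0.31, and larger in Col11a2, Col12a1, Col14a1 and Col19a1. Leaving out either WL mouse or both gives the same fit of LL against WW, not separate results. A mouse alone in its group adds nothing to the estimate of the spread. In that fit (the removal of both mice was chosen after seeing the data), the model called 16 collagen genes. Of these, 13 were higher (35.1%, against 17.3% of all genes) and 3 were lower (8.11%, against 14.8% of all genes). With LL and WW alone it called 15, of which 12 were higher (12.9% of all genes) and 3 lower (11.3% of all genes). Leaving out any single LL, LW or WW mouse called 0.

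**Figure D1:**
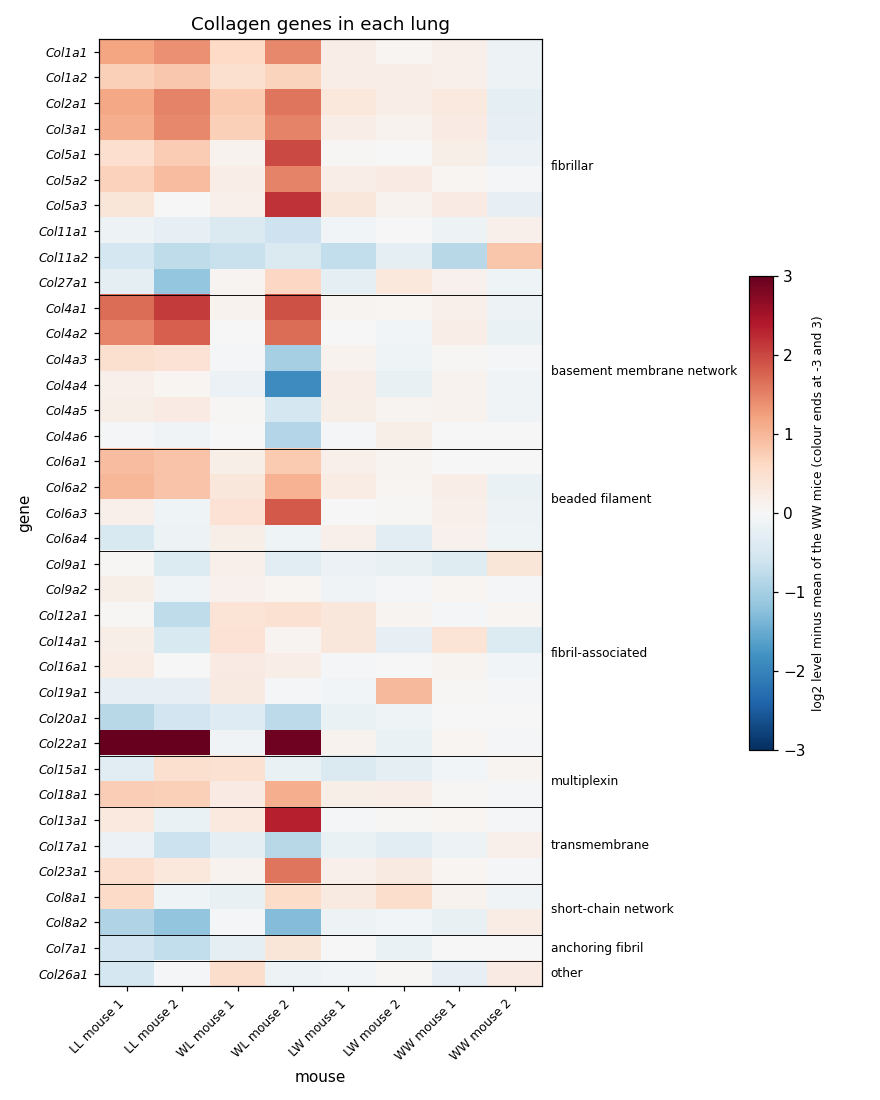
Level of each of the 37 measured collagen genes (rows, by structural class) in each mouse (columns), as log2 difference from the mean of the 2 WW mice. Red is above that mean and blue below. The LL mice and WL mouse 2 share red in Col1a1, Col3a1, Col4a1, Col4a2 and Col22a1, the LW mice are pale nearly throughout, and WL mouse 2 alone is red in Col6a3 and Col13a1 and blue in Col4a4.

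Among the fibrillar collagens, 6 of 10 measured genes stood above WW in both LL mice and 2 stood below, with a class median difference of 0.69. Col1a1, which with Col1a2 makes type I collagen, had levels of 4.42 and 4.61 in LL, 3.84 and 4.69 in WL, 3.45 and 3.31 in LW, and 3.40 and 3.08 in WW (chr11:94813075-94813134, plus strand). All LL and WL values exceeded all LW and WW values. LL was higher than WW by 1.28 (SE 0.29, 2.42-fold, adjusted p = 0.079), or adjusted p = 0.0053 without the WL mice. This probe is printed at 10 spots on each array, and their SD within an array, which measures spot noise and not the spread between mice, was 0.048 to 0.080.

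Col1a2 measured 5.80 and 5.88 in LL, 5.55 and 5.75 in WL, 5.29 and 5.28 in LW, and 5.23 and 4.93 in WW (chr6:4490619-4490678, plus strand). The groups were again ordered with LL and WL above LW and WW, and the values did not overlap between these. The difference of LL from WW was 0.75 (SE 0.16, adjusted p = 0.068). It was called with normexp background correction and with a trended, robust variance model, each of which called this collagen gene alone.

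Col3a1, the type III chain that co-assembles with type I in soft tissue, measured 4.43 and 4.76 in LL, 4.04 and 4.81 in WL, 3.52 and 3.43 in LW, and 3.57 and 3.09 in WW. Its difference of LL from WW was 1.26 (SE 0.30, adjusted p = 0.084), with no overlap. Col2a1, the chain of cartilage fibrils, measured 1.67 and 2.01 in LL, 1.30 and 2.12 in WL, 0.83 and 0.71 in LW, and 0.80 and 0.23 in WW. Its difference was 1.33 (SE 0.32, adjusted p = 0.088). Of 14 markers of chondrocytes, 7, Acan, Matn1 and Matn3 among them, were not well above background in both mice of any group. Of the 6 measured, 0 were called. Hapln1 and Sox9 stood higher in LL than in WW without overlap, by 2.23 (adjusted p = 0.15) and 1.04 (adjusted p = 0.34), and the other 4 stood lower, by -2.24 for Chad to -0.44 for Fmod. Hapln1 was well above background on only 5 arrays, and measured -5.16 and -7.47 in WW. It was also above WW in WL, by 1.84, and in LW, by 1.83. The summed level of the 6, in which Chad and Cytl1 weigh most, was 1.15 to 1.57 in LL, 1.42 to 3.16 in WL, 2.51 to 3.51 in LW and 2.82 to 3.25 in WW, in multiples of the array's 75th percentile. Their part in the Col2a1 levels was not tested.

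Col5a1, a chain of the type V collagen that limits fibril width, measured 1.64 and 1.89 in LL, 1.25 and 3.11 in WL, 1.16 and 1.14 in LW, and 1.31 and 0.96 in WW. LL exceeded WW by 0.63 (SE 0.56, adjusted p = 0.49) without overlap, and WL mouse 2 was far above every other mouse. The following fibrillar genes were picked after their values were seen. Col5a2, its partner chain, measured -0.54 and -0.30 in LL, -1.03 and 0.26 in WL, -1.03 and -0.98 in LW, and -1.18 and -1.29 in WW. Col27a1 went the other way in LL, with -2.63 and -3.51 against -2.22 and -2.47 in WW, and WL mouse 2 was its highest array at -1.73.

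**Figure D2:**
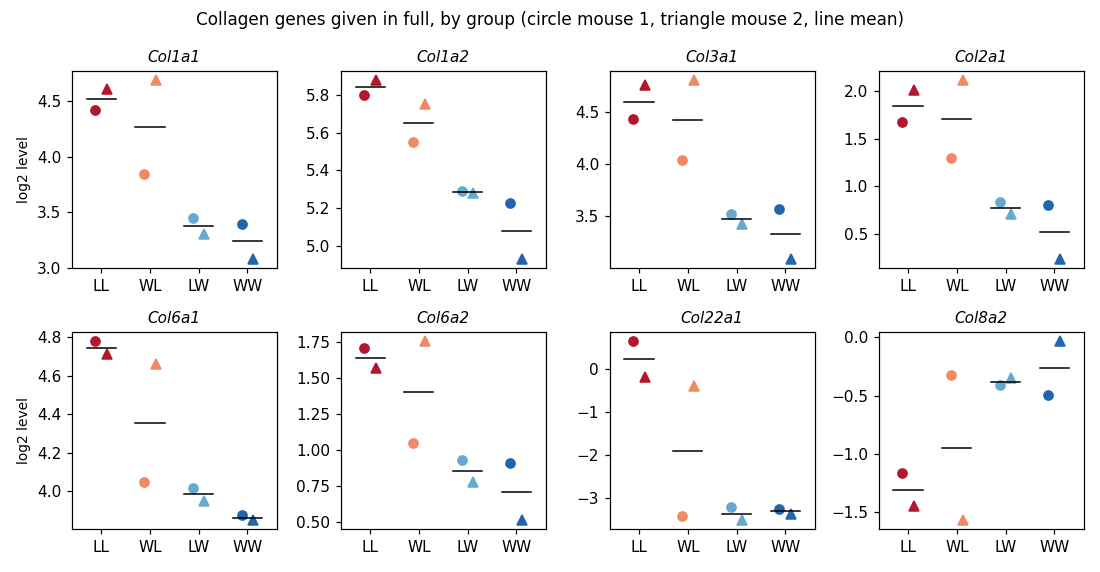
Levels (log2, relative to the array's 75th percentile) of 8 collagen genes in each of the 8 mice, by group; circles are mouse 1, triangles mouse 2 and lines the mean of the 2. Each panel has its own vertical range. In Col1a1, Col3a1 and Col6a1 both LL mice and WL mouse 2 stand near each other, WL mouse 1 is lower, and LW and WW are lowest; in Col8a2 the LL mice and WL mouse 2 are the lowest.

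The chains of type VI collagen form a beaded filament network around fibroblasts and other cells. Col6a1 measured 4.78 and 4.71 in LL, 4.05 and 4.66 in WL, 4.02 and 3.95 in LW, and 3.88 and 3.85 in WW. LL was above WW by 0.88 (SE 0.21, adjusted p = 0.087). Col6a2 measured 1.71 and 1.57 in LL, 1.05 and 1.76 in WL, 0.93 and 0.78 in LW, and 0.91 and 0.51 in WW, a difference of 0.92 (SE 0.27, adjusted p = 0.12). The chain that completes the heterotrimer, Col6a3, was chosen for description after its values were seen. Its brightest probe measured 2.51 and 2.22 in LL and 2.50 and 2.21 in WW, a difference of 0.01 (SE 0.44, adjusted p = 0.99). The other 2 probes of Col6a3 put both LL mice above both WW mice. The junction probe shown above measured -0.87 and -1.53 in LL and -2.22 and -1.86 in WW, a difference of 0.84, and the third probe gave 0.40. Whether LL and WW overlap in Col6a3 therefore depends on the probe. On the brightest probe WL mouse 2 reached 4.20, above every other array, while WL mouse 1 was at 2.78 and LW at 2.35 and 2.39.

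Fibroblast marker genes are given beside these because fibroblasts make most of these chains. All 14 listed were measured, and 11 of the 14 were below 0 in LL against WW, with a median difference of -0.56. Only Cd34, which endothelial cells also express, was called, at 1.13 (SE 0.21, adjusted p = 0.049). The summed level of the list was 291 to 363 in LL, 161 to 336 in WL, 340 to 400 in LW and 352 to 355 in WW, with WL mouse 2 lowest. Inmt, at 7.33 in WL mouse 1 and 4.11 in WL mouse 2, carries most of the gap between these mice. The mean difference from WW over the 14 genes was 0.01 in WL mouse 1 and -0.95 in WL mouse 2. For smooth muscle and myofibroblast markers, 0 of 12 were called and the median difference was 0.06. Of 8 mesothelial markers, all were above 0 in LL against WW and 2 were called, Wt1 at 1.83 (SE 0.17, adjusted p = 0.012) and Prg4 at 3.65 (SE 0.62, adjusted p = 0.041). The summed level of the 8, in which Krt19 and Msln weigh most, was 146 to 152 in LL, 37.1 and 110.6 in the WL mice, 36.6 to 42.7 in LW and 36.5 to 38.1 in WW. In WL mouse 2, Krt19, Msln, Prg4 and Wt1 were above both WW mice. Bnc1 lay between the WW mice, and Upk3b, Lrrn4 and Gpm6a were below both. Cell cycle genes rose, with 11 of 12 called in LL against WW. The part of any of these in the collagen levels was not tested.

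Among the 6 chains of type IV collagen, the gene pairs lie side by side in the genome and were read in opposite directions, as the strands of their probes show. Col4a1 measured 5.01 and 5.43 in LL, 3.42 and 5.24 in WL, 3.40 and 3.38 in LW, and 3.48 and 3.17 in WW (chr8:11199009-11199068, minus strand). Its partner Col4a2 measured 4.88 and 5.21 in LL, 3.43 and 5.09 in WL, 3.43 and 3.33 in LW, and 3.62 and 3.20 in WW (chr8:11448840-11448899, plus strand). In both genes the LL mice and WL mouse 2 were high and the other 5 mice were low, with a gap of over 1 unit between the sets. LL exceeded WW by 1.90 for Col4a1 (SE 0.55, 3.72-fold, adjusted p = 0.12) and by 1.63 for Col4a2 (SE 0.51, adjusted p = 0.14). Without the WL mice the adjusted p was 0.0037 for Col4a1 and 0.0050 for Col4a2.

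The chains of the second alveolar network gave smaller differences between LL and WW. Col4a3 measured 2.01 and 1.97 in LL, 1.46 and 0.53 in WL, 1.63 and 1.41 in LW, and 1.57 and 1.49 in WW. LL stood above WW by 0.46 without overlap (SE 0.30, adjusted p = 0.36, or adjusted p = 0.034 without the WL mice), and WL mouse 2 was the lowest array. Col4a4, its neighbour, measured 2.35 and 2.26 in LL, 2.02 and 0.31 in WL, 2.39 and 1.97 in LW, and 2.29 and 2.10 in WW. LL and WW overlapped, with a difference of 0.11 (SE 0.52, adjusted p = 0.91), and WL mouse 2 was again far below the rest. Col4a5 and Col4a6, the X-linked pair, were not among the genes set to be given in full and are described to complete the class. Col4a5 was higher in LL (1.19 and 1.27) than in WW (1.12 and 0.93) without overlap, by 0.21 (SE 0.21, adjusted p = 0.55). WL mouse 2 was lowest in both, at 0.50 against 0.93 to 1.27 for Col4a5 and at -0.57 against 0.20 to 0.49 for Col4a6.

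WL mouse 2 thus had the Col4a1 and Col4a2 levels of the LL mice, but the lowest Col4a3, Col4a4, Col4a5 and Col4a6 levels of all mice. Markers of alveolar type 1 cells, which lie on that membrane, had a summed level of 756 to 770 in LL, 468 and 406 in the WL mice, 486 to 493 in LW and 539 to 564 in WW. WL mouse 2 was lowest there too, and 0 of the 10 markers were called in LL against WW. Alveolar type 2 markers were all below 0 in LL, with a median difference of -1.99. The only one called was Lyz2, the lysozyme M gene, whose promoter is also active in myeloid cells. Macrophage and monocyte markers were lower too, with 10 of 12 called in LL against WW. The summed level of the type 2 markers, Lyz2 included, was 691 to 815 in LL, 1879 and 748 in the WL mice, and 1883 to 2219 in LW and WW. The part of any of these markers in the type IV levels was not tested.

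**Figure D3:**
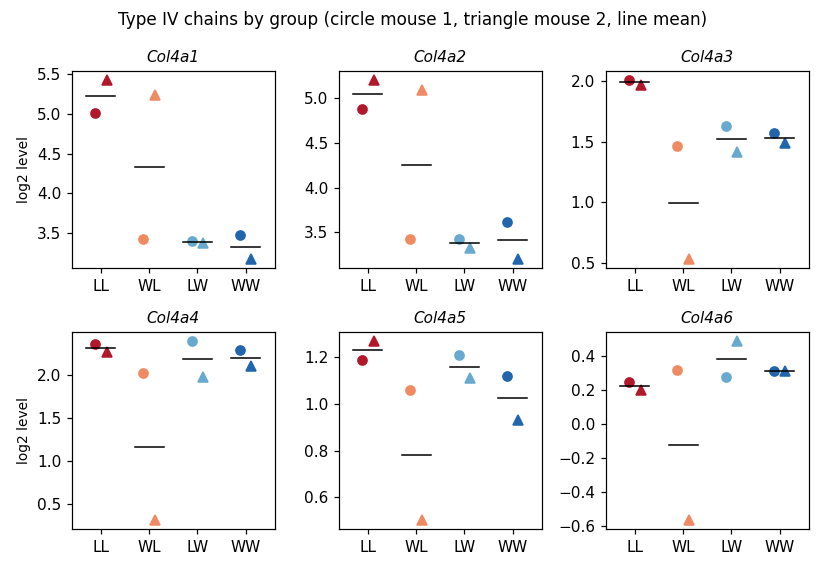
Levels (log2, relative to the array's 75th percentile) of the 6 type IV collagen genes in each mouse, by group; circles are mouse 1, triangles mouse 2 and lines the mean of the 2. Each panel has its own vertical range. WL mouse 2 lies with the LL mice in Col4a1 and Col4a2 and below all other mice in Col4a3, Col4a4, Col4a5 and Col4a6.

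Partners of type IV collagen in the basement membrane (laminins, nidogens, perlecan and their binders) were measured for 23 of 24 listed genes, of which 0 were called in LL against WW. Their median difference was 0.35, against 0.03 for all genes, and 18 of 23 were above 0. The 2 with the smallest p were Agrn, the heparan sulphate proteoglycan agrin, at 0.73 (SE 0.14, adjusted p = 0.050, just above the threshold) and the laminin chain Lamc3 at 0.67 (SE 0.16, adjusted p = 0.087). Without the WL mice, 9 of the 23 were called higher, against 17.3% of all genes, and 1 lower, against 14.8%.

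Fibril-associated collagens held the largest difference of all members. Col22a1, a chain found at tissue junctions such as those of muscle and tendon, measured 0.64 and -0.20 in LL, -3.43 and -0.40 in WL, -3.22 and -3.53 in LW, and -3.27 and -3.37 in WW (chr15:71628920-71628979, minus strand). The LL mice and WL mouse 2 stood far above the other 5 mice. LL exceeded WW by 3.54 (SE 0.91, 11.6-fold, adjusted p = 0.096), and the adjusted p was 0.0031 without the WL mice. The dimmer probe shown above, at a splice junction, did not give the same picture. It measured -3.66 and -3.69 in LL, -4.64 and -4.39 in WL, -5.39 and -3.10 in LW, and -4.43 and -4.24 in WW, was well above background on 7 of the 8 arrays, and its highest array was LW mouse 2. LL was 0.66 above WW on it, and WL mouse 2 was 0.06 below WW.

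The other 7 fibril-associated genes ranged from -0.70 to 0.11 in LL against WW. Col14a1, a fibril-surface collagen, measured -3.00 and -3.63 in LL, -2.73 and -3.09 in WL, -2.83 and -3.41 in LW, and -2.75 and -3.59 in WW, and its groups overlapped (difference -0.14, SE 0.38, adjusted p = 0.83). Col20a1, picked after its values were seen, was the lowest of the class at -0.70 (SE 0.18, adjusted p = 0.096), with -2.20 and -1.96 in LL, -1.77 and -2.16 in WL, -1.57 and -1.51 in LW, and -1.38 and -1.37 in WW. All LL and WL values were below all LW and WW values. It was called without the WL mice, at adjusted p = 0.011.

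The multiplexins are basement membrane collagens whose C-terminal fragments include endostatin. Col18a1, the endostatin precursor, measured 2.49 and 2.47 in LL, 1.99 and 2.83 in WL, 1.93 and 1.96 in LW, and 1.78 and 1.72 in WW. LL exceeded WW by 0.73 (SE 0.27, adjusted p = 0.17), or adjusted p = 0.0053 without the WL mice. Col15a1, read by the glycine-repeat probe shown above, was near background, at -4.39 and -3.56 in LL, -3.58 and -4.24 in WL, -4.48 and -4.31 in LW, and -4.13 and -3.96 in WW. The groups LL and WW overlapped (difference 0.07, SE 0.33, adjusted p = 0.90), and the sign of that difference turned when LL mouse 2 or WW mouse 1 was left out.

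Both epithelial anchoring collagens had lower values in LL than in WW, and neither was called with all arrays in the fit. Col7a1, the anchoring fibril chain beneath stratified epithelium, measured 0.60 and 0.44 in LL, 0.89 and 1.53 in WL, 1.18 and 0.97 in LW, and 1.17 and 1.18 in WW. LL was below WW by -0.65 (SE 0.23, adjusted p = 0.17, or adjusted p = 0.016 without the WL mice) without overlap, and WL mouse 2 was the highest array. Col17a1, the transmembrane chain of hemidesmosomes, measured -2.62 and -3.07 in LL, -2.73 and -3.26 in WL, -2.63 and -2.78 in LW, and -2.58 and -2.29 in WW. All LL, WL and LW values were below those of WW (LL difference -0.41, SE 0.25, adjusted p = 0.34). Col17a1 was not called without the WL mice either (adjusted p = 0.16). Of 8 basal epithelial markers, 6 were above 0 in LL against WW, and Krt14 was called at 2.78 (SE 0.37, adjusted p = 0.022). Trp63 and Itga6 were below 0, at -0.25 and -0.33. The summed level of the 8 was 45.4 to 50.5 in LL and 46.1 to 48.2 in WW. The part of these markers was not tested.

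Col8a1 and Col8a2, the short-chain collagens of the type VIII hexagonal network, gave unlike values. Col8a2 measured -1.16 and -1.45 in LL, -0.32 and -1.57 in WL, -0.41 and -0.35 in LW, and -0.49 and -0.03 in WW. LL was below WW by -1.04 (SE 0.41, adjusted p = 0.19), with WL mouse 2 the lowest array, and the adjusted p was 0.016 without the WL mice. Col8a1 measured 2.07 and 1.36 in LL, 1.27 and 2.04 in WL, 1.76 and 2.01 in LW, and 1.60 and 1.37 in WW, with LL and WW overlapping (difference 0.23, SE 0.34, adjusted p = 0.69). Its sign turned when LL mouse 1 was left out.

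The comparison of WL with WW asks about toxin receptor in recipient cells alone. Both WL mice stood above both WW mice in 14 of 37 collagen genes (37.8%), against 17.5% of all genes, and below both in 5 (13.5%), against 24.5%. No collagen gene was called, and 0.00387% of all genes were. At an unadjusted p under 0.05, 9 collagen genes and 8.18% of all genes were reached. Col2a1 had the smallest p (adjusted p = 0.49). The WL values rest on 2 unlike mice. Of the 37 genes, WL mouse 1 was nearer to the WW mean than to the LL mean in 24, and WL mouse 2 was nearer to the LL mean in 27. LL and WW overlapped in 13 of the 37, so being nearer to one of them says little there. Col13a1, at 3.57 in WL mouse 2, counted as nearer to LL (mean 1.29) than to WW (mean 1.24). The same counts were not taken over all genes. Without WL mouse 1 the fit called 24 collagen genes, 16 higher (18.5% of all genes) and 8 lower (19.2% of all genes), all from WL mouse 2 alone, and without WL mouse 2 it called 0.

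WL mouse 2 was the highest of all 8 arrays in 14 of the 37 collagen genes (37.8%, against 24.1% of all genes) and the lowest in 7 (18.9%, against 29.4%). The genes named next were picked after their values were seen and are described without a test. Col13a1, a transmembrane collagen, measured 3.57 in WL mouse 2 and 1.05 to 1.53 in the other 7 mice. Col5a3, the third type V chain, measured 0.67 in WL mouse 2 and -1.76 to -1.14 in the others. Col23a1, also transmembrane, measured 1.16 in WL mouse 2 and -0.50 to 0.08 in the others. In LL against WW these 3 genes differed by 0.04, 0.19 and 0.41 in that order. LL and WW overlapped in Col13a1 and Col5a3, while in Col23a1 both LL mice (0.08 and -0.12) were above both WW mice (-0.37 and -0.50). A dimmer probe of Col13a1 gave 0.71 for LL against WW.

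**Figure D4:**
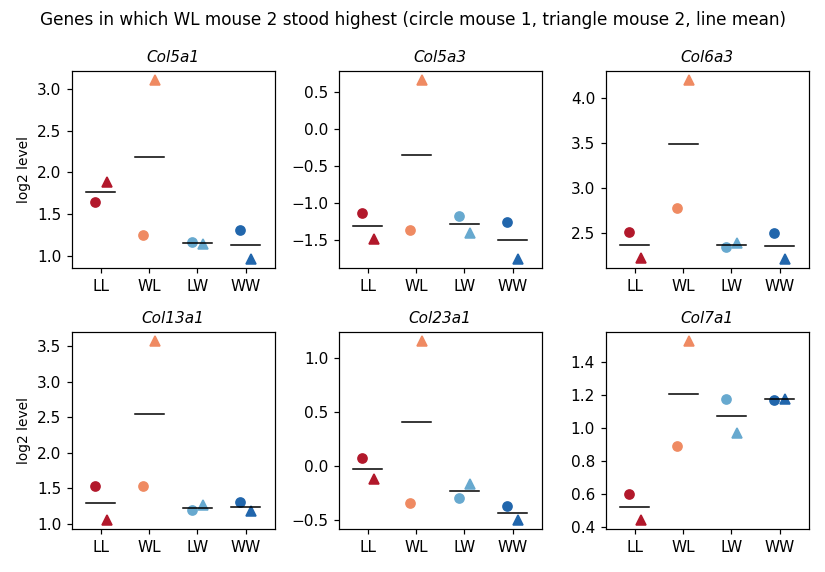
Levels (log2, relative to the array's 75th percentile) of 6 collagen genes in which WL mouse 2 was the highest array, by group; circles are mouse 1, triangles mouse 2 and lines the mean of the 2. Each panel has its own vertical range. WL mouse 2 stands above all other mice in each panel, and in Col7a1 the LL mice are the lowest.

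The comparison of LW with WW asks about toxin receptor in marrow-derived cells alone. No collagen gene was called, 0.0542% of all genes were, and 0 of the 37 reached an unadjusted p under 0.05, against 2.20% of all genes. The differences ran from -0.50 for Col11a2 to 0.45 for Col19a1. Both ends rest on unlike mice of a group, as Col11a2 measured -3.70 and -2.04 in WW and Col19a1 -5.06 and -4.00 in LW. Both LW mice stood above WW in 7 genes (18.9%, against 13.8% of all genes) and below in 3 (8.11%, against 20.1%). The median difference was 0.02, against -0.02 for all genes. Col1a1, Col3a1, Col4a1 and Col4a2 overlapped between LW and WW. The 7 genes above WW were Col1a2, Col5a2, Col6a1, Col8a1, Col12a1, Col18a1 and Col23a1, with differences of 0.12 for Col6a1 to 0.40 for Col8a1. The 3 below were Col15a1, Col17a1 and Col20a1.

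Averaged over marrow, the LysM-DTR recipients differed from wild-type recipients by -0.80 for Col8a2 to 2.50 for Col22a1. No collagen gene was called, against 1.27% of all genes, and 14 of 37 (37.8%) reached an unadjusted p under 0.05, against 31.2% of all genes. Col3a1 had the smallest p (adjusted p = 0.071). The fit called 22 collagen genes without WL mouse 1, against 48.4% of all genes, and 10 without WL mouse 2, against 13.3%. Averaged over recipients, LysM-DTR against wild-type marrow gave 0 called collagen genes, against 0.317% of all genes, and 0 at an unadjusted p under 0.05, against 8.76%. Without WL mouse 1, 4 were called, against 1.84% of all genes, and without WL mouse 2, 5 were, against 8.47%. The marrow by recipient interaction called 0 collagen genes, against 0.0619% of all genes, and 1 reached an unadjusted p under 0.05, against 9.14%. It called 1 without WL mouse 1, against 0.863% of all genes, and 3 without WL mouse 2, against 8.55%. For Col22a1 it was 2.19, the largest of the members.

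Where a gene had several probes, these were compared. Of the 37 genes, 14 had 2 or more probes well above background on all 8 arrays, and in each of the 14 all such probes gave the same sign of LL minus WW. In 7 of the 14, every dimmer probe was further from 0 than the brightest. Col1a1 gave 1.28 on its brightest probe and 1.23 and 1.84 on the others, and Col3a1 gave 1.26 against 1.59 and 1.65. For Col1a2 the values were 0.75 against 0.93 and 1.23. Col27a1 gave -0.73 and -1.26.

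Probes differed in how far WL mouse 2 stood from WW. Col22a1 gave 2.92 on its brightest probe and -0.06 on the other, and Col6a2 gave 1.04 and 1.56 on 2 probes and 0.12 on the third. Col6a3 stood above the WW mean by 1.85 on its brightest probe, by 1.60 on the junction probe shown above and by 2.14 on the third. Col13a1 stood above by 2.33 and 2.76 on 2 probes and by 0.38 on the third. Col4a4 was below WW by -1.89 and -1.95 on its 2 probes.

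**Figure D5:**
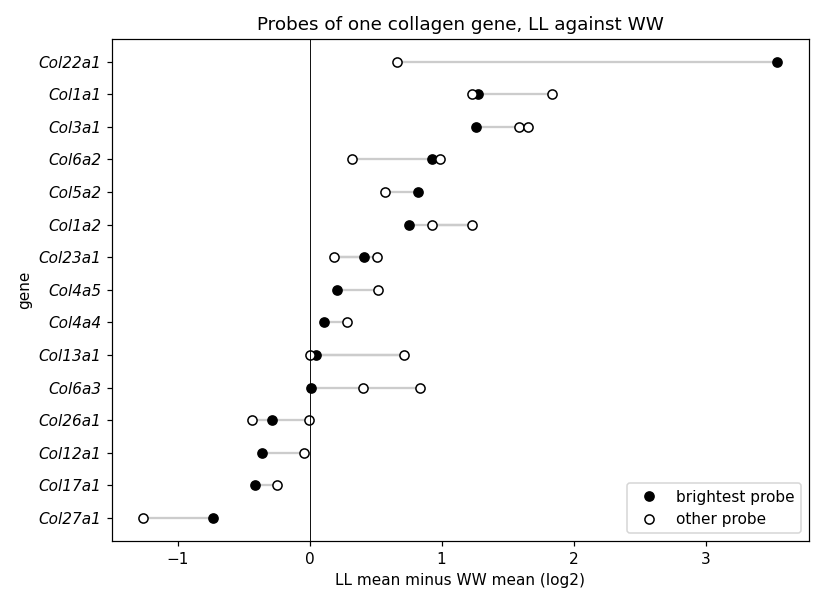
Mean of the 2 LL mice minus mean of the 2 WW mice (horizontal axis, log2) for each probe of the collagen genes with 2 or more probes well above background on at least 7 arrays. Filled circles are the brightest probe and open circles the others. The probes of Col22a1 lie furthest apart, at 3.54 and 0.66.

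Adjacent members other than the type IV pairs can be set side by side. Col3a1 and Col5a2 are neighbours on chromosome 1, with LL differences of 1.26 and 0.82 and WL mouse 2 above WW by 1.48 and 1.50. Col6a1 and Col6a2 are neighbours on chromosome 10, at 0.88 and 0.92 in LL. Col9a1 and Col19a1, neighbours on chromosome 1, were at -0.19 and -0.24, and both probes were well above background on 5 of the 8 arrays. Adjacency was taken from the RefSeq gene order, in which all 44 names were found.

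Genes that process, cross-link and bind collagen were read from lists. Of 35 genes of collagen assembly 34 were measured, 1 was called higher in LL against WW and 0 lower, and their median difference was 0.46. The called gene was Tll1, a tolloid protease that cleaves procollagen C-propeptides, with -2.04 and -1.69 in LL, -2.76 and -2.36 in WL, -2.55 and -2.63 in LW, and -2.92 and -3.22 in WW. Its difference was 1.21 (SE 0.22, adjusted p = 0.045). The LL values were above all others. Without the WL mice, 16 of the 34 were called higher, against 17.3% of all genes, and 5 lower, against 14.8%.

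Of 12 collagen receptors, 1 was called lower in LL and 0 higher. This was Gp6, the platelet collagen receptor, at -3.46 and -3.57 in LL, -2.90 and -3.08 in WL, -2.57 and -2.78 in LW, and -2.44 and -1.93 in WW, a difference of -1.33 (SE 0.21, adjusted p = 0.033). The list's median difference was 0.00. Macrophage and monocyte markers were lower beside it, with 10 of 12 called lower in LL, and their part was not tested.

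Of 26 fibril partners, which include small proteoglycans, fibulins and elastic fibre genes, 25 were measured and 0 were called. Their median difference was 0.06. The 2 with the smallest p were Eln, the elastin gene, and Ltbp4, a TGF-beta binding protein of elastic fibres. Eln measured 2.68 and 3.20 in LL, 0.39 and 2.02 in WL, 0.94 and 0.80 in LW, and 0.72 and 0.59 in WW, a difference of 2.28 (SE 0.50, adjusted p = 0.073). Ltbp4 was lower by -1.03 (SE 0.24, adjusted p = 0.082). Eln was high in the LL mice and WL mouse 2, and the other 5 mice were lower.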

How the data were processed

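Each of 8 lungs was read on its own Agilent array (62976 spots, Cy3 only). The deposited intensity values came from Agilent Feature Extraction, version 11.5.1.1 in the submitters' processing notes, and per the file headers were background-subtracted and not scaled between arrays. The deposited log2 series table was found to equal log2 of these minus a constant per array. Flags of the deposited files, of other units, gave detection.

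Control and non-uniform spots were left out, spots of a probe averaged (56605 probes), log2 taken and each array's 75th percentile subtracted. Of these, 39602 probes well above background on both arrays of a group were kept, the brightest per gene (25830 genes). The test was that of limma (version 3.58.1, R 4.3.3) with a model of 4 group means (4 residual and 2.19 prior degrees of freedom), with Benjamini-Hochberg adjustment over all genes and calls at an adjusted p under 0.05. The number of arrays limits the precision. The script was tested on simulated data. Figures used matplotlib 3.10.9 in Python 3.11.15.

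The members, the classes and the gene lists were chosen with earlier results of these data known. Genes given in full are those called in any comparison, the 8 others with the largest LL difference without overlap, and a fixed set of 15. Any other is said to have been picked after its values were seen, or is named to complete a class, a range or a count. From each list of matrix genes the called ones are named, or the 2 with the smallest p. Labels give 2 mice per group. Each p-value sets a difference against a spread between mice that is pooled over all groups in the fit and moderated over all genes. Sequences are those of the array files. Alternatives tried were other background correction, scaling, filters, probe averaging, the series table, a replicate block, another variance model, fewer arrays and leaving out each mouse.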

Additional observations from a re-analysis of the deposited data

Results flagged for a closer look

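Col4a3 was singled out because the recipient's genotype went opposite ways in the 2 marrow groups. With LysM-DTR marrow both LysM-DTR recipients (2.01 and 1.97) were above both wild-type recipients (1.63 and 1.41), and with wild-type marrow both (1.46 and 0.53) were below (1.57 and 1.49). The interaction was 1.01 (SE 0.43) and did not pass limma's test (adjusted p = 0.57). Col12a1, a fibril-associated chain, was singled out on its brightest probe. There LysM-DTR marrow went with lower levels in LysM-DTR recipients and higher levels in wild-type recipients, without overlap. Its levels were -0.40 and -1.20 in LL, -0.03 and 0.02 in WL, -0.10 and -0.37 in LW, and -0.51 and -0.38 in WW. The interaction was -1.004 (SE 0.38, adjusted p = 0.51). A dimmer Col12a1 probe, well above background on all 8 arrays, overlapped between the marrow groups in both recipients. It measured -2.62 and -3.18 in LL, -2.59 and -2.64 in WL, -2.84 and -2.65 in LW, and -2.75 and -2.97 in WW. The pattern without overlap therefore depends on the probe. With 2 mice a group, no sample could be tested as standing apart from its group.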

How the results depend on the processing

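In LL against WW the count of called collagen genes was 0 and became 1 with normexp background correction, 1 with the trended, robust variance model, 15 with only LL and WW in the fit, and 16 with both WL arrays left out, the last chosen after seeing the data; all genes called higher and lower then numbered 4471 and 3815. It stayed 0 with quantile scaling, a percentile taken over always-detected probes, no detection filter, a stricter one, the mean of probes and the series table. Leaving out each mouse gave 0 to 16 in LL against WW, 0 to 24 in WL against WW, 0 to 22 for recipient, 0 to 5 for marrow, 0 to 3 for the interaction and 0 in LW against WW. The replicate numbers do not pair the mice (correlations of deviations -0.10 to 0.19), and with the number as a replicate block 0 collagen genes were called in each comparison. Of 19 genes given in full, 16 kept their sign in LL against WW. With each mouse left out, Col8a1 ranged from -0.13 (without LL mouse 1) to 0.58, Col15a1 from -0.34 (without LL mouse 2; -0.01 without WW mouse 1) to 0.49, and Col14a1 from -0.57 to 0.28 (without WW mouse 1; 0.17 without LL mouse 2). Col14a1 was 0.0028 with quantile scaling. A mouse left alone in its group is assumed to vary like the others. Probes of Col9a1, Col15a1 and Col19a1 lay near background, which limits what they can show.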
